A study of Arabidopsis thaliana with 12 samples.

Results

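WRKY proteins are a plant family of transcription factors, named after the amino acid letters at the start of their DNA-binding domain. The genes described here are all rows of an Arabidopsis expression table whose description holds the word WRKY or whose name holds an alias that starts with WRKY, with 1 gene left out by that rule. They number 73 of the 33323 genes in the table, and 57 of them, of 19660 genes in all, passed a filter of at least 0.5 FPKM (fragments per kilobase of transcript scaled to the mapped fragments of a library) in 3 or more libraries. Neither step looked at differences between genotypes, but 4 members (WRKY31, WRKY59, WRKY61 and WRKY71) passed the filter only through libraries of plants that overexpress KLU.

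The libraries come from a study of KLU, also named CYP78A5, a cytochrome P450 gene that acts in organ growth and leaf longevity. Single plants of 4 genotypes, all in the Col-0 background, were grown under short days and their rosettes were taken 35 days after they germinated, giving 3 libraries for each genotype. 35S:KLU1 and 35S:KLU2 are independent transgenic lines that carry KLU fused to GFP under the 35S promoter of cauliflower mosaic virus, a promoter active in most cells and not in the pattern of the native gene. The klu mutant is a T-DNA insertion line, and Col-0 is the wild type. The labels call the tissue leaf, although whole rosettes were taken. In bulk RNA of a rosette, more cells of a type and more RNA per cell cannot be told apart.

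KLU itself checked the labels, at 1728.75 to 2890.32 FPKM (median 2212) in the 35S:KLU lines, 0.13, 0.13 and 0.22 FPKM in klu and 6.26, 5.42 and 5.53 FPKM in Col-0. All 5 leaf markers were measured in every library, whereas the summed level of 6 root markers stayed at or below 0.82 FPKM and that of 6 flower markers at or below 1.68 FPKM. Of the root markers, EXPA7, RHD6 and PLT1 were at 0 in all libraries. Within its genotype, klu replicate 1 stood apart. Its root mean square distance to the other klu libraries was 0.441 and 0.478 on the log2(FPKM + 1) scale over all tested genes, against 0.309 between those, and over the WRKY members it was 0.638 and 0.709, against 0.288. It was the lowest of the 3 klu libraries for 45 of the 57 tested members. Comparisons with klu are therefore also given without that library. The relative value of 1 fragment was estimated as the commonest ratio of low FPKM values of the same gene in a library and in Col-0 replicate 1. It differed 1.78-fold between the deepest and the shallowest library, so depth limits the members near 0.5 FPKM. Counting error cannot be given, since counts were not used, and the p-values measure the spread between individual plants.

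WRKY factors bind W boxes, short DNA elements in the promoters of many defence and senescence genes, including those of WRKY genes themselves. Many are switched on by salicylic acid, by immune receptors acting through MAP kinases, or during leaf ageing, and within the family activators stand beside repressors. The family is divided by its domains: group I with a pair of WRKY domains, group II with a single domain and subgroups IIa to IIe, and group III with a different zinc finger. A few members are fused to intracellular immune receptors of the NLR kind. When the coding sequences of the reference were translated, 70 of the 73 members held the letters WRKY. The other 3 were POLAR, AT3G32090 and AT5G46310. POLAR is a protein of the stomatal lineage whose description in the table is that of a WRKY factor, and it is kept here only because the rule takes it.

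The 300 bases before the gene start are shown for 5 members on which the results turn, to let their W boxes be seen beside the values that follow. Capitals mark the letters TTGACC or TTGACT on either strand (GGTCAA and AGTCAA on the other), the core searched for as a W box, and the sequences run 5′ to 3′ on the strand of the gene, from RefSeq, TAIR10.1. WRKY30 (chr5:8154711-8155010, minus strand) and WRKY33 (chr2:16107935-16108234, plus strand) hold 3 boxes each, WRKY62 (chr5:352096-352395, minus strand) holds 2, and WRKY8 (chr5:18804057-18804356, minus strand) and WRKY18 (chr4:15382477-15382776, plus strand) hold none.
WRKY30: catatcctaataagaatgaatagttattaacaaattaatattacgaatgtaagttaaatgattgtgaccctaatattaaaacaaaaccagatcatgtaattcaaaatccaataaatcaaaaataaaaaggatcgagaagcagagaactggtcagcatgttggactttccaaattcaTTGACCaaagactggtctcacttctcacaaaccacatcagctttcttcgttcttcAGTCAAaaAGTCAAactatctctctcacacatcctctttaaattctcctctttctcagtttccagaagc
WRKY33: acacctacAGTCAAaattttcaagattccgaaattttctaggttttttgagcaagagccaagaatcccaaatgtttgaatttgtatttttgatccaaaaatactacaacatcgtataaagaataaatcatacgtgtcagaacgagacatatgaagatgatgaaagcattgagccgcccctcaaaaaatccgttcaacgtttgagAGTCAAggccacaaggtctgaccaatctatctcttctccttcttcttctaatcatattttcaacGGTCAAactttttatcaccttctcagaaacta
WRKY62: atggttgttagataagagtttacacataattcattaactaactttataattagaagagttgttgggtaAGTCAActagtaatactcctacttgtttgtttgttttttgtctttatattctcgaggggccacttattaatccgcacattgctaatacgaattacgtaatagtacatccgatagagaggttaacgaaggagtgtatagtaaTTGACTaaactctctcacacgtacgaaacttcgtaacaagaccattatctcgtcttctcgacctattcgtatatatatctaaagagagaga
WRKY8: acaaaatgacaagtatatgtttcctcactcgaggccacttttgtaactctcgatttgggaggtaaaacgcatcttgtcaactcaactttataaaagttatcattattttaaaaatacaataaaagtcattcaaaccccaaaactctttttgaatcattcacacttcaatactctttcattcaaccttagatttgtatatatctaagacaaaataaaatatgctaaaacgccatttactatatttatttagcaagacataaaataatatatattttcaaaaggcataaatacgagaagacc
WRKY18: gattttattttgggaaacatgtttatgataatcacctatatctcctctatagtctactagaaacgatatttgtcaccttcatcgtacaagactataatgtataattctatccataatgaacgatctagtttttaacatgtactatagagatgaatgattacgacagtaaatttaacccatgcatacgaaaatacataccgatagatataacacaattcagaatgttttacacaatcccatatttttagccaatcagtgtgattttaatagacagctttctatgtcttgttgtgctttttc

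Among all tested members, 40.4% held at least 1 W box in that window, against 32.3% of 27443 protein-coding genes, and 17.5% held at least 2, against 7.91%. Of the 18 members called higher in the 35S:KLU lines than in Col-0, 5 held a box (27.8%), and of the 37 members not called in that comparison, 17 did (45.9%). With at least 2 boxes the shares of these were 16.7% and 18.9%. Of the 29 members called higher than in klu, 11 held a box (37.9%), and 24.1% held at least 2. These shares were not tested. WRKY30 and WRKY33 were the only members with 3. The window starts at the outermost transcript start that RefSeq gives for a gene, so boxes inside the gene or farther upstream were not counted, and a match is a string of letters and not a bound site.

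Comparison of the 35S:KLU lines with Col-0 asks which WRKY genes change when KLU is overexpressed. In it, 18 of the 57 tested members rose and 2 fell (limma on log2(FPKM + 1), adjusted p under 0.05 over all tested genes). These are 31.6% and 3.51% of the members, whereas 11.4% of all tested genes were called higher and 8.18% lower. The median difference of the members was 0.22 on the log2(FPKM + 1) scale, against 0.03 over all tested genes. Without the 4 members that passed the filter only through 35S:KLU libraries, 15 of 53 rose and 2 fell, with a median of 0.21. The called members numbered 13 without 35S:KLU2 replicate 3 and also without each of the Col-0 libraries in turn. The share of all genes called in those settings was not worked out. Leaving out klu replicate 1, which enters this comparison only through the shared estimate of spread, gave 24 higher and 4 lower. In that setting 16.5% of all tested genes were called higher and 12.1% lower.

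Comparison with the klu mutant, which shares the 35S:KLU libraries with the one above, called 29 members higher and 3 lower, or 50.9% and 5.26% of those tested. Over all tested genes 15.9% were called higher and 10.7% lower. The median of the members was 0.33, against 0.04 over all tested genes. Without the 4 members that passed the filter only through 35S:KLU libraries, 25 of 53 were higher and 3 lower, with a median of 0.30. Without klu replicate 1 the counts were 26 higher and 6 lower, against 10.9% and 13.3% of all genes. The medians were then 0.25 for the members and −0.03 for all genes. With libraries rescaled by the median of ratios, which moved the median of all genes to −0.01, 28 were higher and 7 lower, against 15.1% and 14.2% of all genes. The 18 members that rose relative to Col-0 were all called higher relative to klu.

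**Figure D1:**
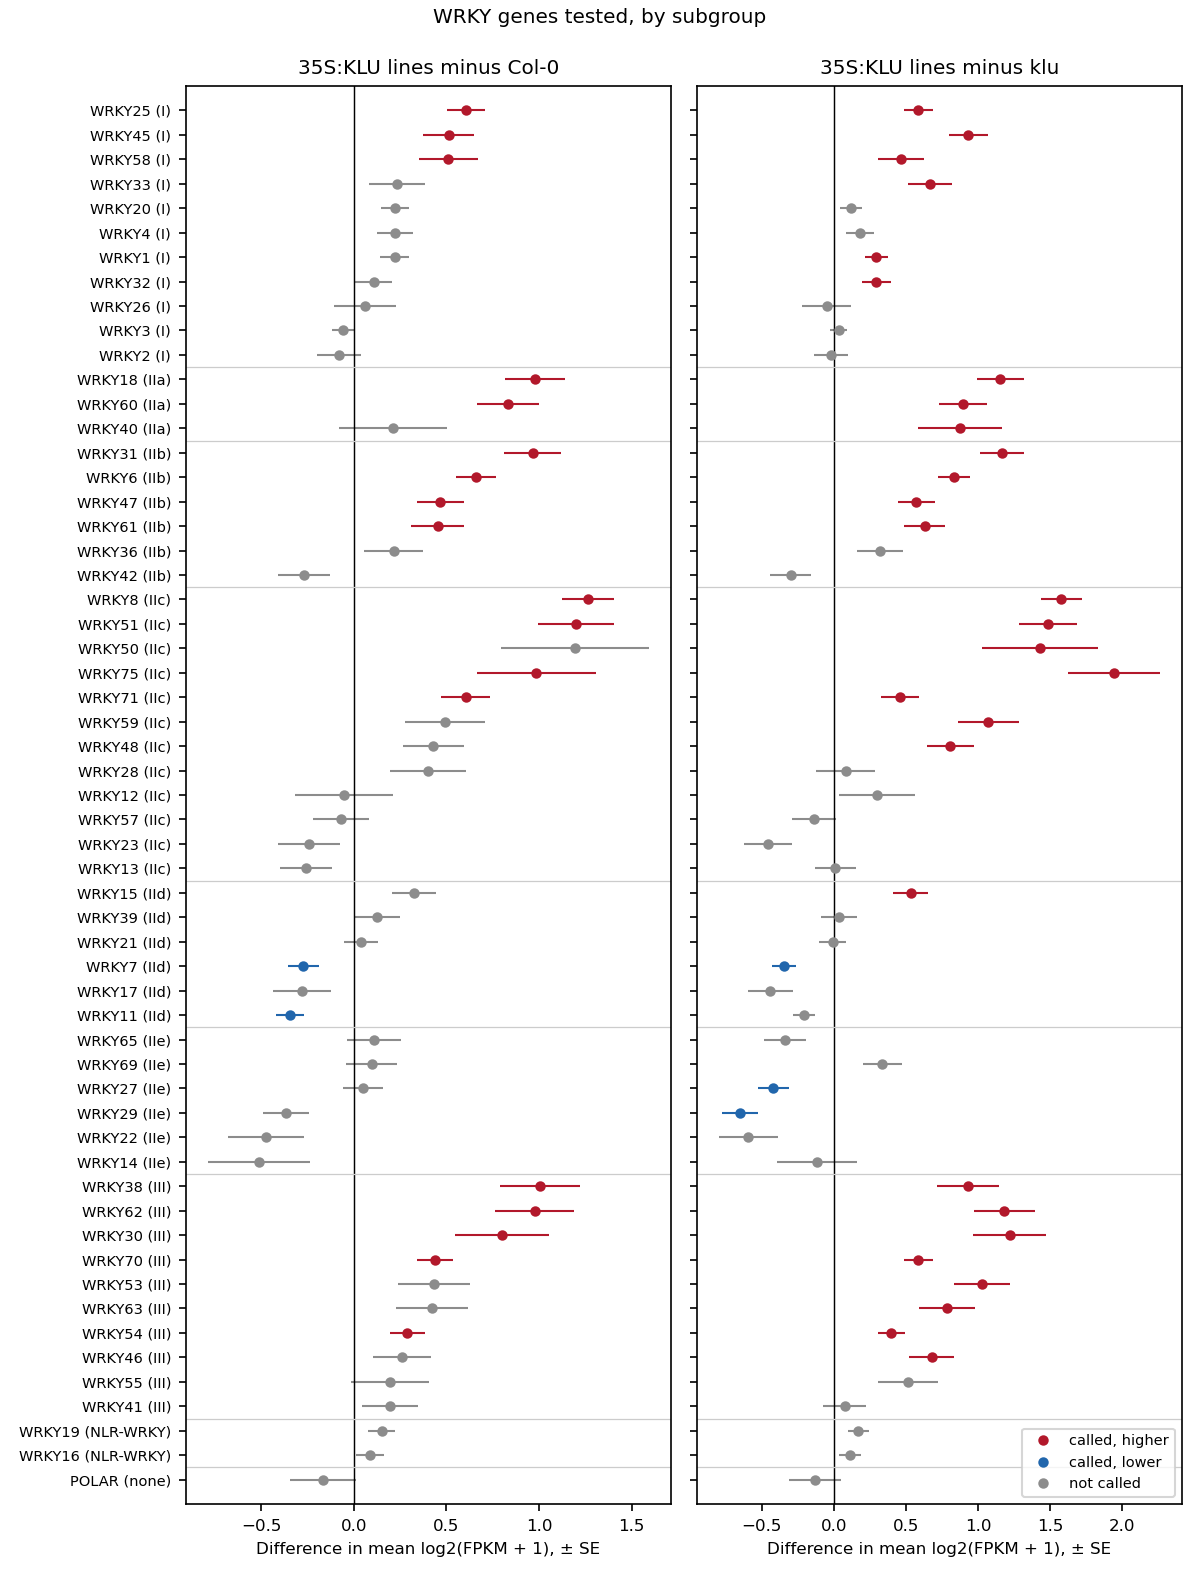
Difference in mean log2(FPKM + 1) with its standard error for the 57 tested WRKY genes, ordered by subgroup, for the 35S:KLU lines minus Col-0 (left) and minus klu (right, with its own scale). Red points were called higher, blue points lower and grey points were not called; 18 points are red and 2 blue on the left, and 29 red and 3 blue on the right.

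Between klu and Col-0 no member was called (limma, 57 tested), and 8 had an unadjusted p under 0.05. Over all genes 0.0203% were called higher and 0.0407% lower in klu. WRKY27, with the smallest adjusted p, had 2.92, 3.13 and 2.24 FPKM in klu and 1.56, 1.7 and 1.86 FPKM in Col-0, without overlap, and a difference of 0.47 ± 0.13 (adjusted p = 0.418). The median of the members was −0.11 with all libraries and 0.05 without klu replicate 1, again with 0 called. Between the lines, 35S:KLU2 against 35S:KLU1, no member was called either and 2 had an unadjusted p under 0.05, where 0% of all genes were called higher and 0.0102% lower.

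Each line was also set against the controls on its own. In 35S:KLU1, 10 members were higher and 1 lower than in Col-0, with 5.6% and 6.07% of all genes called. In 35S:KLU2, 17 were higher and 1 lower, with 10.8% and 5.27% of all genes. The 10 higher and the 1 lower (WRKY11) of 35S:KLU1 were called in 35S:KLU2 as well. Of the 7 members called in 35S:KLU2 only, the differences in 35S:KLU2 and 35S:KLU1 were 0.42 and 0.16 for WRKY54, 0.52 and 0.36 for WRKY70, 0.64 and 0.38 for WRKY45, 0.52 and 0.41 for WRKY47, and 0.53 and 0.38 for WRKY61. They were 0.29 and 0.15 for WRKY1 and 0.30 and 0.15 for WRKY20. All 7 had the same sign in both lines, and none was called in the test of the lines against each other. The median difference of all tested genes from Col-0 was 0.06 in 35S:KLU2 and −0.004 in 35S:KLU1. The called members of 35S:KLU1 numbered 5 without 35S:KLU1 replicate 1, 6 and 7 without Col-0 replicates 1 and 2, and 18 without klu replicate 1. Those of 35S:KLU2 numbered 8 without 35S:KLU2 replicate 3 and 10, 10 and 11 without Col-0 replicates 1, 2 and 3. For single lines the share of all genes called with a library left out was not worked out. These counts therefore do not tell a change in the members from a change in calls over all genes.

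Relative to klu, 23 members were higher and 2 lower in 35S:KLU1 (9.52% and 9.2% of all genes), and 26 were higher and 3 lower in 35S:KLU2 (15% and 7.11% of all genes). Both lines shared 22 of the higher and 2 of the lower calls. Without 35S:KLU1 replicate 1, and also without its replicate 2, 16 members were called in 35S:KLU1. Without klu replicate 1, 23 were higher and 3 lower in 35S:KLU2, and 16 were higher and 5 lower in 35S:KLU1, again without the shares of all genes in those settings. WRKY50 was called in 35S:KLU1 only, at a difference of 1.34 in 35S:KLU2 and 1.52 in 35S:KLU1. Called in 35S:KLU2 only were WRKY1 at 0.36 in 35S:KLU2 and 0.22 in 35S:KLU1, WRKY40 at 1.04 and 0.71, WRKY54 at 0.53 and 0.27, WRKY71 at 0.48 and 0.44, and WRKY27 at −0.46 and −0.38. The direction was the same in both lines for each.

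Summed over the members, the levels came to 985 to 1287 FPKM in 35S:KLU, with a range of 630 to 843 FPKM for klu and of 826 to 852 FPKM for Col-0. Klu replicate 1 gave the 630, and the other klu libraries gave 811 and 843. The mean sum of the 35S:KLU lines was 1.31 times that of Col-0 and 1.44 times that of klu, and 1.31 and 1.43 times without WRKY70 and WRKY54. WRKY70 alone held 25.9% to 29.4% of the sum in 35S:KLU, 26.2% to 26.8% in klu and 25.4% to 27.5% in Col-0. Of the 6 35S:KLU libraries, 35S:KLU2 replicate 3 was the highest for 34 of the 57 members.

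**Figure D2:**
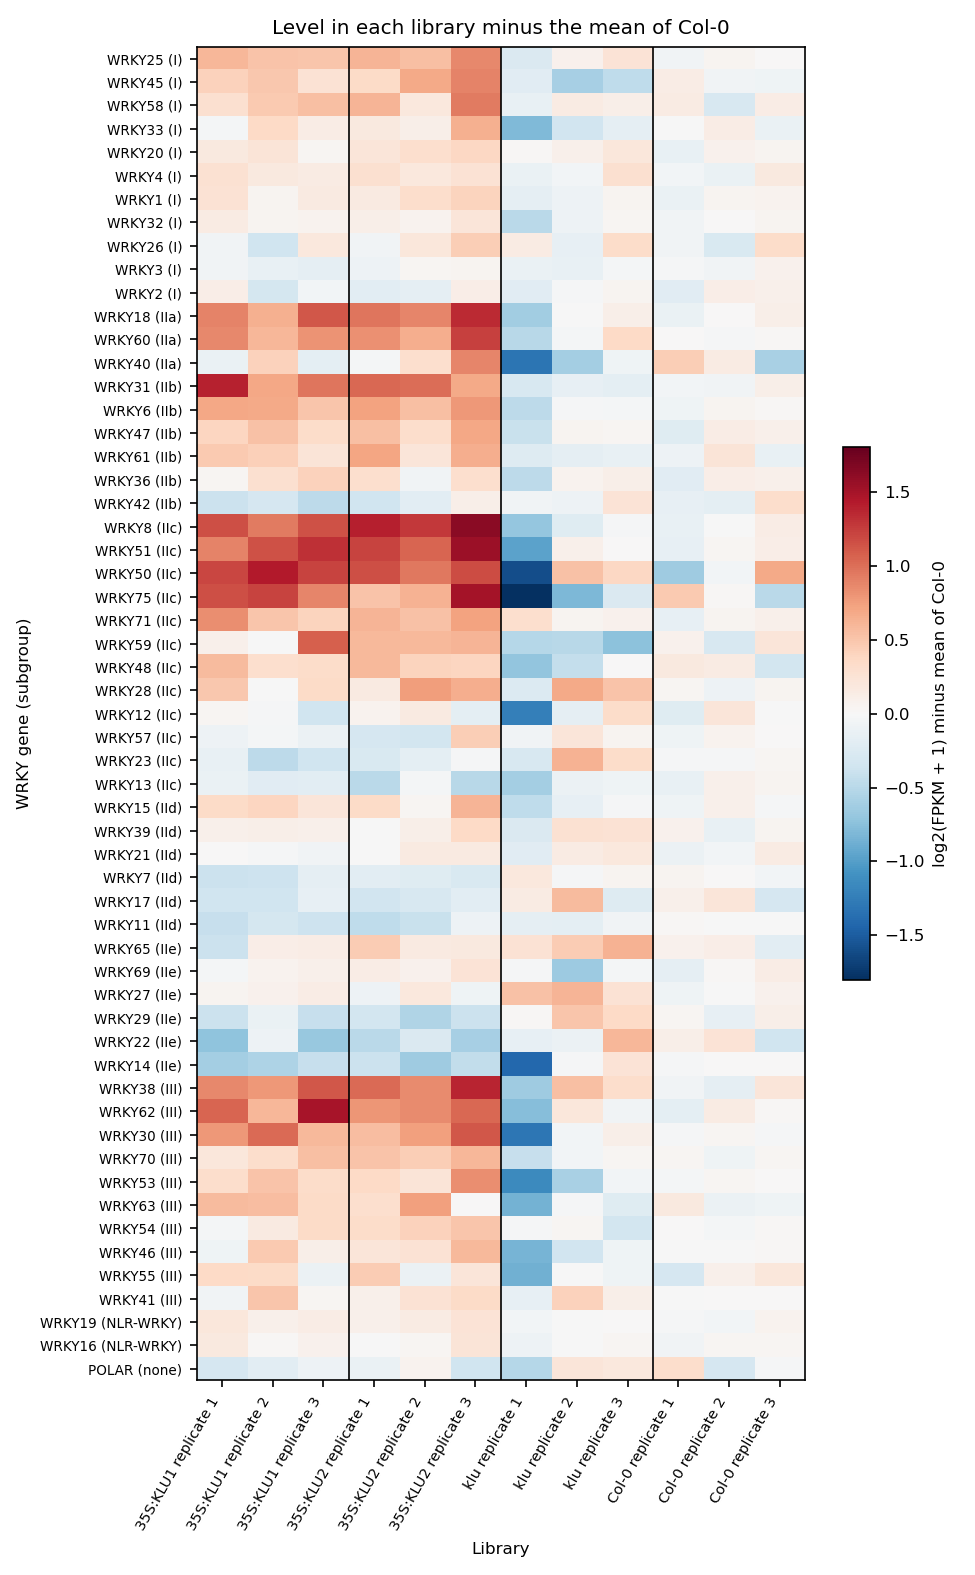
Level of each tested WRKY gene in each of the 12 libraries, as log2(FPKM + 1) minus the mean of the 3 Col-0 libraries, with red above and blue below that mean. Columns run from 35S:KLU1 and 35S:KLU2 through klu to Col-0; the column of klu replicate 1 is the bluest, with WRKY50 at 3.42 FPKM there and at 18.36 and 16.35 FPKM in klu replicates 2 and 3.

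The largest group by known role was the salicylic acid response. This list of 11 holds WRKY factors that salicylic acid induces or that act in its signalling. Of the 11, 7 rose relative to Col-0 and all 11 relative to klu, or 10 without klu replicate 1 (without WRKY40). Over all tested genes 11.4% and 15.9% were called higher, the second 10.9% without klu replicate 1. The list was drawn up with earlier results of these data known. WRKY28, which activates salicylic acid synthesis, is not in it and was not called in either comparison. The median difference of the 11 was 0.83 relative to Col-0 and 0.93 relative to klu, the second 0.67 without klu replicate 1. The highest values of all belonged to WRKY70 (AT3G56400), which links salicylic acid to jasmonic acid responses and holds back leaf senescence. It stood at 254.93 to 334.17 FPKM (median 309.8) in 35S:KLU, 165.11, 212.74 and 226.16 FPKM in klu and 227.44, 209.77 and 226.57 FPKM in Col-0, so that no 35S:KLU library overlapped the others. The differences of 0.44 ± 0.10 (SE) relative to Col-0 (adjusted p = 0.0096) and 0.59 ± 0.10 relative to klu (adjusted p = 0.0013) both passed, the first at an adjusted p of 0.051 without Col-0 replicate 2.

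WRKY54 (AT2G40750), a close relative of WRKY70 that acts with it, was next in level, at 87.55 to 127.44 FPKM (median 113.7) in 35S:KLU, 88.14, 91.99 and 70.67 FPKM in klu and 90.5, 87.38 and 91.05 FPKM in Col-0. One 35S:KLU1 library lay within the range of Col-0, and the difference from Col-0 of 0.29 ± 0.09 was at the threshold (adjusted p = 0.049, limma). It missed the threshold in 13 of 20 other settings, at adjusted p up to 0.148. Relative to klu it was 0.40 ± 0.09 (adjusted p = 0.0089).

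WRKY38 and WRKY62, group III factors known to repress basal defence and to bind a histone deacetylase, both rose. WRKY38 (AT5G22570) had 32.52 to 49.58 FPKM (median 36.7) in 35S:KLU, 11.54, 27.37 and 23.41 FPKM in klu and 17.71, 16.45 and 21.78 FPKM in Col-0. For WRKY62 (AT5G01900) the values were 5.79 to 11.55 FPKM (median 7.65) in 35S:KLU, 1.62, 4.17 and 3.27 FPKM in klu and 2.94, 3.97 and 3.55 FPKM in Col-0. Neither overlapped between the 35S:KLU lines and the other genotypes. Relative to Col-0 the differences were 1.0 ± 0.22 for WRKY38 (adjusted p = 0.0077) and 0.97 ± 0.21 for WRKY62 (adjusted p = 0.0084). Relative to klu they were 0.93 ± 0.22 for WRKY38, or 0.57 without klu replicate 1, and 1.18 ± 0.21 for WRKY62, or 0.90 without it.

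WRKY50 and WRKY51, which act where salicylic acid holds down jasmonic acid signalling, had like levels in the 35S:KLU lines and unlike spread in the controls. WRKY51 (AT5G64810) was at 27.7 to 43.95 FPKM (median 33.9) in 35S:KLU, 6.88, 15.36 and 14.47 FPKM in klu and 12.84, 14.73 and 15.61 FPKM in Col-0. WRKY50 (AT5G26170) was at 25.1 to 35.33 FPKM (median 29.6) in 35S:KLU, 3.42, 18.36 and 16.35 FPKM in klu and 7.6, 12 and 20.65 FPKM in Col-0. Both lay above every other library in all 6 35S:KLU libraries, but the Col-0 libraries of WRKY50 spread widely. WRKY51 rose by 1.20 ± 0.20 relative to Col-0 (adjusted p = 0.0022) and 1.49 ± 0.20 relative to klu (adjusted p = 0.00038). For WRKY50 the difference from Col-0 was as large, 1.19 ± 0.40, and just missed the threshold (adjusted p = 0.055), passing it in 8 of 20 other settings. Its difference from klu was 1.43 ± 0.40 (adjusted p = 0.021), or 0.74 without klu replicate 1.

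The 3 genes of subgroup IIa, WRKY18, WRKY40 and WRKY60, bind one another and act together as brakes on early defence and on abscisic acid signalling. WRKY18 (AT4G31800) had 35.33 to 58.52 FPKM (median 43.6) in 35S:KLU, 14.14, 22.14 and 24.08 FPKM in klu and 20.52, 22.54 and 24.07 FPKM in Col-0. WRKY60 (AT2G25000) had 12.31 to 19.67 FPKM (median 14.6) in 35S:KLU, 5.21, 7.63 and 10.31 FPKM in klu and 7.88, 7.66 and 7.93 FPKM in Col-0. These did not overlap between the 35S:KLU lines and the other genotypes. WRKY18 rose by 0.98 ± 0.16 relative to Col-0 (adjusted p = 0.0018) and 1.15 ± 0.16 relative to klu, and WRKY60 by 0.83 ± 0.17 (adjusted p = 0.0052) and 0.89 ± 0.17.

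WRKY40, unlike its partners, was not called relative to Col-0. The values of WRKY40 (AT1G80840) were 15.79 to 33.72 FPKM (median 19.8) in 35S:KLU, 6.62, 11.37 and 17 FPKM in klu and 24.63, 19.99 and 11.6 FPKM in Col-0, so that the groups overlapped. The difference from Col-0 was 0.21 ± 0.29 (adjusted p = 0.66, limma) and −0.08 without Col-0 replicate 3. Relative to klu it was 0.88 ± 0.29 (adjusted p = 0.044), and 0.55 with an adjusted p of 0.197 without klu replicate 1. Whether WRKY40 differs in response from WRKY18 and WRKY60 was not tested. WRKY40 is also known as a gene that touch and wounding switch on within minutes, and the levels of such genes are given with the linked genes.

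WRKY46 and WRKY53, group III factors induced by salicylic acid, were called only relative to klu. WRKY53 (AT4G23810), a promoter of leaf senescence, had 26.89 to 41.33 FPKM (median 29.1) in 35S:KLU, 9.66, 14.8 and 21.96 FPKM in klu and 22.08, 23.38 and 22.74 FPKM in Col-0. WRKY46 (AT2G46400) had 21.61 to 34.77 FPKM (median 27.3) in 35S:KLU, 12.42, 17.87 and 21.62 FPKM in klu and 22.7, 22.85 and 23.17 FPKM in Col-0. WRKY53 lay above Col-0 in all 6 35S:KLU libraries and WRKY46 in 5 of 6. For WRKY53 the difference was 0.43 ± 0.19 relative to Col-0 (adjusted p = 0.141, or 0.036 without klu replicate 1) and 1.03 ± 0.19 relative to klu (adjusted p = 0.0025). For WRKY46 it was 0.26 ± 0.16 (adjusted p = 0.269) and 0.68 ± 0.16 (adjusted p = 0.0077).

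**Figure D3:**
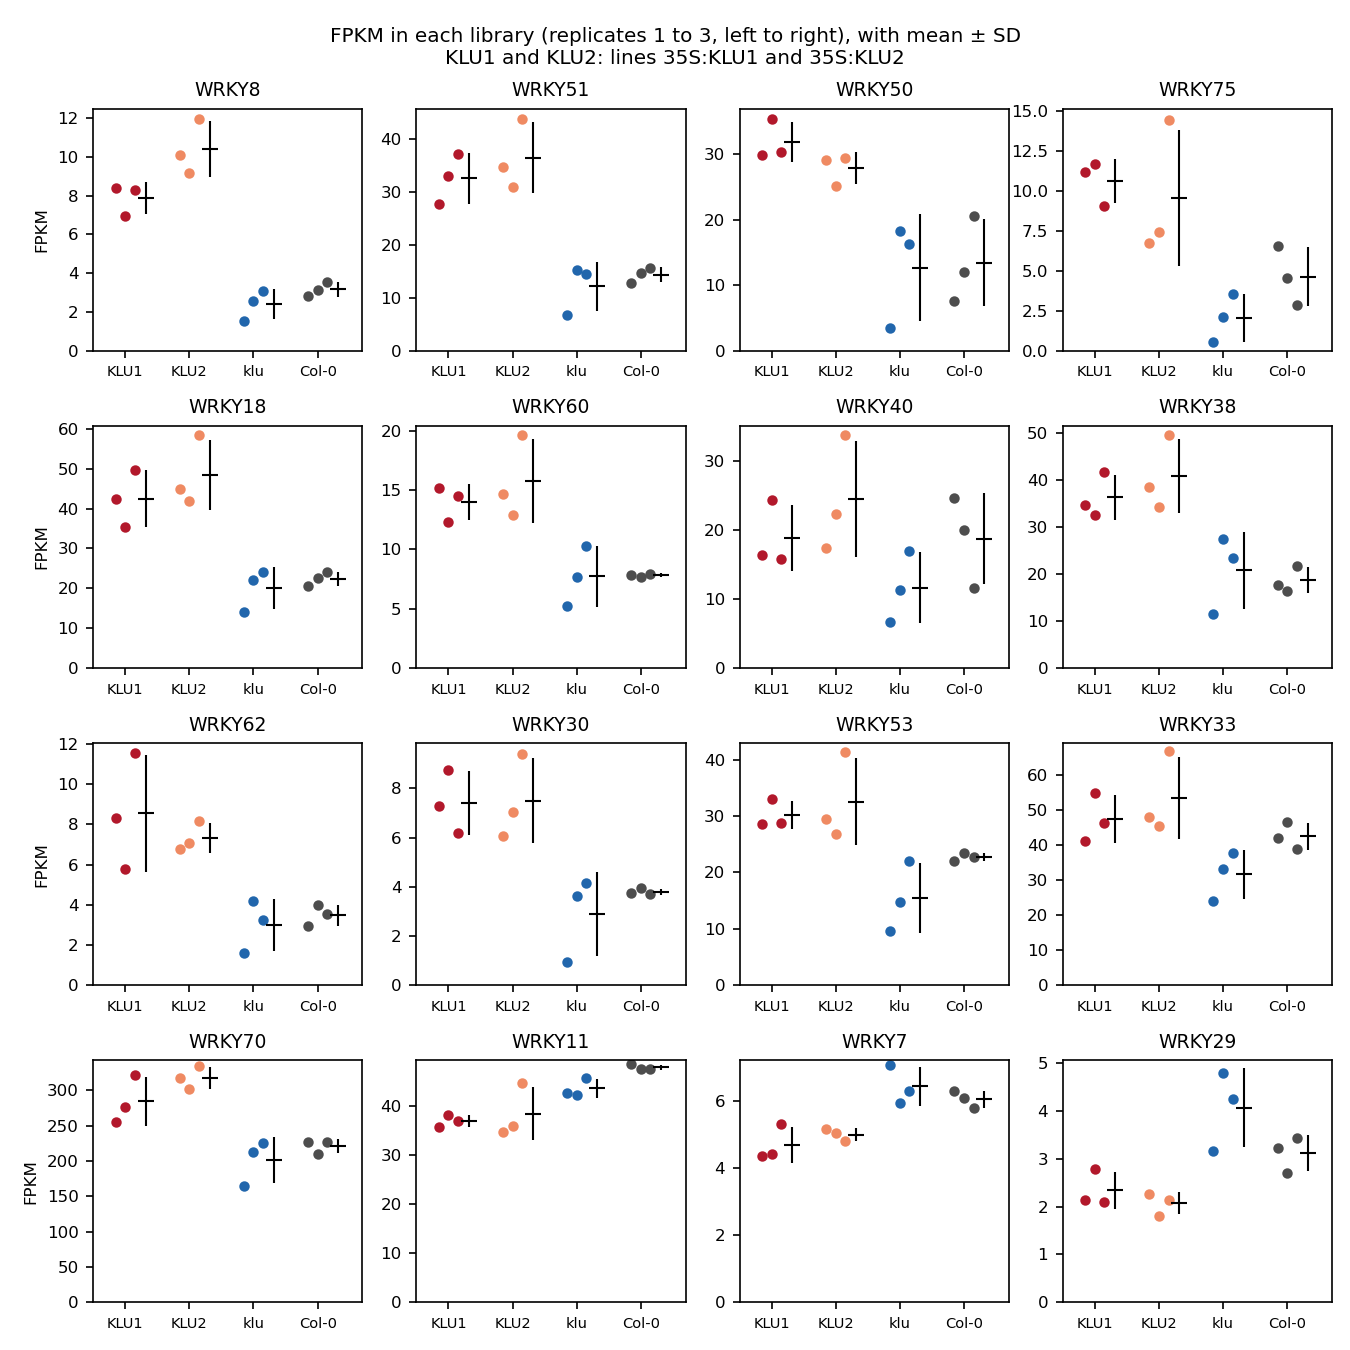
FPKM of 16 WRKY genes in each library, with replicates 1 to 3 from left to right as points and the mean with its standard deviation (n = 3) as a black mark beside them. For WRKY8, WRKY18 and WRKY51 all 6 35S:KLU points lie above those of klu and Col-0, whereas those of WRKY40 overlap.

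Among factors of leaf senescence, 6 of 9 rose relative to Col-0 and 7 of 9 relative to klu. Of those of phosphate supply, 3 of 4 rose in both comparisons. The counts relative to klu were the same without klu replicate 1. Over all tested genes 11.4% were called higher than in Col-0 and 15.9% higher than in klu, the second 10.9% without klu replicate 1. Without WRKY71, which passed the filter only through 35S:KLU libraries, the senescence counts were 5 of 8 and 6 of 8. The lists share WRKY6, WRKY45 and WRKY75, the 3 phosphate supply genes that rose. WRKY75 (AT5G13080), which promotes senescence and is induced by phosphate shortage, had 6.78 to 14.46 FPKM (median 10.1) in 35S:KLU, 0.56, 2.11 and 3.57 FPKM in klu and 6.54, 4.55 and 2.88 FPKM in Col-0. WRKY6 (AT1G62300), which acts in senescence and represses phosphate export, had 8.14 to 10.14 FPKM (median 9.48) in 35S:KLU, 3.66, 5.36 and 5.34 FPKM in klu and 5.14, 5.71 and 5.57 FPKM in Col-0. Both were above all other libraries, by a margin of 6.78 against 6.54 FPKM for WRKY75. WRKY75 rose by 1.94 ± 0.32 relative to klu (adjusted p = 0.0011), the largest of any member there with a pseudocount of 1, and by 0.99 ± 0.32 relative to Col-0 (adjusted p = 0.049, up to 0.20 in the 14 of 20 settings that lost the call). WRKY6 rose by 0.66 ± 0.11 (adjusted p = 0.00195) and 0.83 ± 0.11 relative to Col-0 and klu.

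WRKY45 (AT3G01970), a phosphate uptake factor placed here with group I although its protein holds a single WRKY motif, was at 2.06 to 3.73 FPKM (median 2.48) in 35S:KLU, 1.22, 0.68 and 0.86 FPKM in klu and 1.81, 1.44 and 1.42 FPKM in Col-0. It rose by 0.51 ± 0.14 relative to Col-0 (adjusted p = 0.021, but 0.083 and 0.080 without Col-0 replicates 2 and 3) and 0.93 ± 0.14 relative to klu (adjusted p = 0.00055). WRKY42, the other repressor of phosphate export beside WRKY6, went the other way in value without being called, at −0.27 ± 0.14 and −0.30 ± 0.14. The list of phosphate genes therefore held values of both signs, although none was called lower.

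With a pseudocount of 1, the largest difference from Col-0 was that of WRKY8 (AT5G46350), a subgroup IIc factor that acts in responses to pathogens and salt. It had 6.95 to 11.95 FPKM (median 8.76) in 35S:KLU, 1.56, 2.59 and 3.1 FPKM in klu and 2.81, 3.16 and 3.57 FPKM in Col-0. Its lowest 35S:KLU library was well above the highest of the others. WRKY8 rose by 1.26 ± 0.14 relative to Col-0 (adjusted p = 0.00027), between 1.20 and 1.48 over 20 other settings, and by 1.58 ± 0.14 relative to klu (adjusted p = 3.3e-05).

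WRKY30 and WRKY31 also rose, WRKY31 at levels near the filter, which it passed only through the 35S:KLU libraries in which it is high. WRKY30 (AT5G24110), a group III gene switched on early by oxidative stress, had 6.08 to 9.41 FPKM (median 7.14) in 35S:KLU, 0.95, 3.62 and 4.14 FPKM in klu and 3.75, 3.94 and 3.71 FPKM in Col-0. WRKY31 (AT4G22070), a IIb gene close to WRKY6, had 0.96 to 2.18 FPKM (median 1.43) in 35S:KLU, 0, 0.1 and 0.08 FPKM in klu and 0.18, 0.17 and 0.31 FPKM in Col-0. Both were above every other library in all 6. WRKY30 rose by 0.80 ± 0.25 relative to Col-0 (adjusted p = 0.044, lost in 11 of 20 settings, up to 0.123) and 1.22 ± 0.25 relative to klu, or 0.78 without klu replicate 1. For WRKY31 the differences were 0.96 ± 0.15 (adjusted p = 0.0015) and 1.17 ± 0.15 on a scale that understates changes of genes near 1 FPKM, and with a pseudocount of 0.1 they were 2.21 and 3.25.

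The other members called higher relative to Col-0 were WRKY25, WRKY47, WRKY58, WRKY61 and WRKY71. WRKY25 (AT2G30250), a group I factor of heat and defence responses that MPK4 can phosphorylate, had 31.64 to 41.06 FPKM (median 33.5) in 35S:KLU, 18.33, 23.37 and 26.47 FPKM in klu and 21.25, 22.94 and 22.32 FPKM in Col-0, a difference of 0.61 ± 0.10 relative to Col-0 (adjusted p = 0.0021). Differences of the remaining 4 from Col-0 were 0.60 for WRKY71, 0.51 for WRKY58, 0.47 for WRKY47 and 0.45 for WRKY61. The calls of WRKY58, WRKY61 and WRKY47 were lost in 9, 8 and 4 of the other settings. WRKY61 and WRKY71 were below 0.5 FPKM in every Col-0 and klu library.

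Of the genes linked to early defence through MAP kinases (5 in the list), WRKY25 alone rose relative to Col-0. Relative to klu WRKY25 and WRKY33 rose and WRKY29 fell. Among all tested genes 11.4% were called higher than in Col-0, with 15.9% higher and 10.7% lower than in klu. Without klu replicate 1, 2 were higher and 2 lower than in klu, against 10.9% and 13.3% of all genes. Relative to Col-0, 1 was then higher and 1 lower, against 16.5% and 12.1%. WRKY33 (AT2G38470), a MAP kinase substrate needed to make the antimicrobial compound camalexin and to resist necrotrophic fungi, had 41.36 to 67.04 FPKM (median 47.3) in 35S:KLU, 24.04, 33.08 and 37.84 FPKM in klu and 42.07, 46.72 and 38.8 FPKM in Col-0. The difference from Col-0, 0.23 ± 0.15, was not called (adjusted p = 0.315, limma), and that from klu was 0.67 ± 0.15 (adjusted p = 0.0073). WRKY29 (AT4G23550), a marker of the response to bacterial flagellin, had 1.81 to 2.79 FPKM (median 2.14) in 35S:KLU, 3.16, 4.79 and 4.25 FPKM in klu and 3.23, 2.7 and 3.43 FPKM in Col-0. Its differences were −0.36 ± 0.12 relative to Col-0 (adjusted p = 0.057) and −0.65 ± 0.12 relative to klu (adjusted p = 0.0026). WRKY22, its partner in flagellin signalling, was at −0.47 ± 0.21 and −0.59 ± 0.21 without being called (adjusted p = 0.13 and 0.052), the second called at −0.72 without klu replicate 1.

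With all libraries, the members that fell lay in subgroups IId and IIe, and without klu replicate 1 WRKY23 of IIc was lower than in klu too. WRKY11 and WRKY7 belong to IId, whose proteins bind calmodulin and are known to restrain basal resistance. WRKY11 (AT4G31550) had 34.76 to 44.74 FPKM (median 36.5) in 35S:KLU, 42.72, 42.35 and 45.84 FPKM in klu and 48.59, 47.62 and 47.66 FPKM in Col-0. WRKY7 (AT4G24240) had 4.37 to 5.32 FPKM (median 4.93) in 35S:KLU, 7.08, 5.95 and 6.32 FPKM in klu and 6.3, 6.09 and 5.8 FPKM in Col-0. In the comparison with Col-0 neither overlapped. WRKY11 fell by 0.34 on the log2 scale (SE 0.07, adjusted p = 0.0079) and WRKY7 by 0.27 (SE 0.08, adjusted p = 0.039, lost in 9 of 20 settings). Relative to klu WRKY7 fell by 0.35, while WRKY11 was at −0.21 ± 0.07 (adjusted p = 0.056). WRKY15, of the same subgroup, rose by 0.53 ± 0.12 relative to klu and was at 0.32 ± 0.12 relative to Col-0 (adjusted p = 0.081).

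Subgroup IIe had no member called relative to Col-0 and WRKY27 and WRKY29 called lower relative to klu among 6 tested, at a median of −0.16 and −0.38. Among all tested genes 10.7% were called lower than in klu, or 13.3% without klu replicate 1. Without klu replicate 1, WRKY14, WRKY22, WRKY27 and WRKY29 were lower than in klu and WRKY69 was higher, and WRKY14 and WRKY29 were lower than in Col-0. WRKY14 (AT1G30650) had 0.71 to 1.04 FPKM (median 0.885) in 35S:KLU, 0, 1.64 and 2.16 FPKM in klu and 1.63, 1.68 and 1.69 FPKM in Col-0. WRKY27 (AT5G52830), a gene of susceptibility to bacterial wilt, had 1.54 to 2.1 FPKM (median 1.83) in 35S:KLU and, as given above, the highest values in klu. It was lower than in klu by 0.42 ± 0.11 (adjusted p = 0.014, or 0.063 without klu replicate 2) and differed from Col-0 by 0.05 ± 0.11 (adjusted p = 0.79).

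By subgroup, the counts of members called higher than in Col-0 were 3 of 11 in group I, 2 of 3 in IIa, 4 of 6 in IIb, 4 of 12 in IIc, 0 of 6 in IId, 0 of 6 in IIe and 5 of 10 in group III. The medians of the differences in these subgroups were 0.22, 0.83, 0.46, 0.46, −0.12, −0.16 and 0.43, beside 0.03 over all genes. Over all tested genes 11.4% were called higher than in Col-0 and 15.9% higher than in klu. Counts relative to klu were 6, 3, 4, 7, 1, 0 and 8 members higher, with 1 lower in IId and 2 in IIe, against 10.7% of all genes lower. Without klu replicate 1 they were 3, 2, 4, 7, 1, 1 and 8 higher, with 1 lower in IIc, 1 in IId and 4 in IIe. The shares of all genes were then 10.9% higher and 13.3% lower than in klu. Of the members that passed the filter only through the 35S:KLU libraries in which they are high, WRKY31 and WRKY61 belong to IIb and WRKY59 and WRKY71 to IIc. Without them, 2 of 4 in IIb were higher in both comparisons, and in IIc 3 of 10 were higher than in Col-0 and 5 of 10 higher than in klu. The subgroups were small, and no test compared them.

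Called relative to klu only, beyond those described, were WRKY59, WRKY48, WRKY63, WRKY1 and WRKY32. Differences from klu were 1.07 for WRKY59, 0.81 for WRKY48, 0.78 for WRKY63, 0.29 for WRKY1 and 0.29 for WRKY32. WRKY59 (AT2G21900) had 0.66 to 2.53 FPKM (median 1.5) in 35S:KLU, 0.17, 0.18 and 0 FPKM in klu and 0.75, 0.36 and 0.94 FPKM in Col-0. Without the 35S:KLU libraries it would not have passed the filter. The calls of WRKY1, WRKY32, WRKY40 and WRKY58 relative to klu were lost without klu replicate 1, where the difference of WRKY32 was 0.14. WRKY63 lies in a cluster with its near copies WRKY64 and WRKY67 on chromosome 1, and how reads shared by such copies were divided was not tested.

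The remaining calls relative to klu were kept without klu replicate 1, most at smaller differences. Among the salicylic acid response genes, the differences without it were 1.15 for WRKY51, 0.93 for WRKY18, 0.75 for WRKY53, 0.67 for WRKY60, 0.47 for WRKY46, 0.45 for WRKY70 and 0.44 for WRKY54. For the other genes described they were 1.52 for WRKY75, 1.38 for WRKY8, 1.13 for WRKY31, 1.11 for WRKY59, 1.04 for WRKY45, 0.69 for WRKY6, 0.64 for WRKY48, 0.54 for WRKY63, 0.49 for WRKY33, 0.45 for WRKY25 and 0.41 for WRKY15. The members lower than in klu stood at −0.79 for WRKY29, −0.39 for WRKY27 and −0.29 for WRKY7. WRKY45, WRKY54, WRKY59, WRKY71 and WRKY29 differed more from klu without that library than with it.

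**Figure D4:**
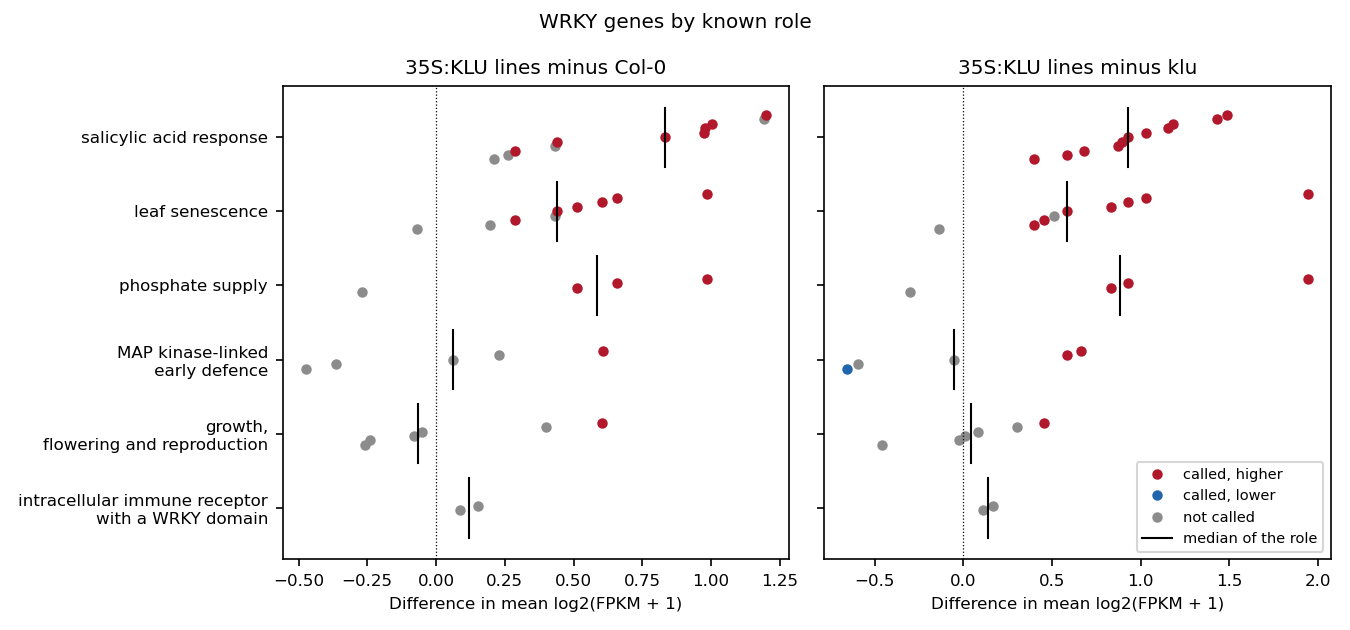
Difference in mean log2(FPKM + 1) of each tested WRKY gene, arranged by known role, for the 35S:KLU lines minus Col-0 (left) and minus klu (right); some genes stand in more than 1 role. Black bars give the median of a role, at 0.83 on the left and 0.93 on the right for the salicylic acid response and at −0.07 and 0.04 for growth, flowering and reproduction, the last −0.15 without klu replicate 1.

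Of 6 tested genes of growth, flowering and reproduction, WRKY71, which acts in flowering and shoot branching, rose in both comparisons and the others were not called. WRKY71 passed the filter only through 35S:KLU libraries, and without it 0 of 5 were called in either comparison. Among all tested genes 11.4% were called higher than in Col-0 and 15.9% higher than in klu. Lower than in klu without klu replicate 1 were 13.3% of all genes. Without klu replicate 1, WRKY23, an auxin-responsive gene of root development, was called lower than in klu. It had 1.7 to 2.69 FPKM (median 2.23) in 35S:KLU, 2.07, 4.8 and 3.72 FPKM in klu and 2.7, 2.72 and 2.87 FPKM in Col-0, and its difference from klu was −0.72 without klu replicate 1 (adjusted p = 0.0019) and −0.46 with it (adjusted p = 0.060). The median of the 6 genes relative to klu was 0.04 with all libraries and −0.15 without klu replicate 1. WRKY28 (AT4G18170), which KLU is known to act on in the ovule and which also activates salicylic acid synthesis, had 0.92 to 2.27 FPKM (median 1.58) in 35S:KLU, 0.63, 2.12 and 1.76 FPKM in klu and 0.99, 0.81 and 1.01 FPKM in Col-0. The groups overlapped, and its differences were 0.40 ± 0.20 relative to Col-0 (adjusted p = 0.196) and 0.08 ± 0.20 relative to klu (adjusted p = 0.807), the second −0.20 without klu replicate 1. WRKY12 and WRKY13, which set flowering time under short days in opposite directions, differed from Col-0 by −0.05 and −0.26 and from klu by 0.30 and 0.01, without being called.

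WRKY16 and WRKY19, whose proteins join an NLR immune receptor to a WRKY domain, were not called in any comparison of the lines with the controls. WRKY16 (AT5G45050) had 8.47 to 10.18 FPKM (median 8.93) in 35S:KLU, 7.92, 8.44 and 8.77 FPKM in klu and 8.13, 8.74 and 8.74 FPKM in Col-0. WRKY19 (AT4G12020) had 5.56 to 6.35 FPKM (median 5.82) in 35S:KLU, 4.96, 5.16 and 5.22 FPKM in klu and 5.11, 4.97 and 5.48 FPKM in Col-0. WRKY19 lay above both other genotypes in every 35S:KLU library by a small margin, and WRKY16 did not. Differences from Col-0 and klu were 0.09 and 0.11 (SE 0.08) for WRKY16 and 0.15 and 0.17 (SE 0.07) for WRKY19, none called.

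The 16 members that did not pass the filter were WRKY9, WRKY10, WRKY24, WRKY34, WRKY35, WRKY43, WRKY49, WRKY56, WRKY64, WRKY66, WRKY67, WRKY68, WRKY72, WRKY74, AT3G32090 and AT5G46310. WRKY68, AT3G32090 and AT5G46310 were listed at 0 in all 12 libraries. WRKY67 was at 0.16 to 1.11 FPKM (median 0.275) in 35S:KLU, 0 FPKM in each klu library and 0.1, 0.1 and 0.12 FPKM in Col-0. WRKY43 was at 1.55 FPKM in 35S:KLU2 replicate 3 and at or below 0.27 FPKM in every other library. At this depth such values rest on few fragments.

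Genes linked to the family were read from lists chosen with earlier results of these data known, to be read beside the 11.4% of all tested genes higher and 8.18% lower than in Col-0 and the 15.9% higher and 10.7% lower than in klu. Of 14 tested genes known as WRKY targets or as parts of the pathways they act in, 8 were higher and 1 lower in the 35S:KLU lines than in Col-0, and 10 were higher and 0 lower than in klu, or 9 and 1 without klu replicate 1. The medians of these genes were 0.50 relative to Col-0 and 0.59 relative to klu, beside 0.03 and 0.04 over all genes. PR1, the classical marker of salicylic acid responses, had 2048.1 to 3001.95 FPKM (median 2700.2) in 35S:KLU, 106.82, 396.18 and 549.64 FPKM in klu and 327.66, 549.53 and 544.16 FPKM in Col-0. PAD3, the last enzyme of camalexin synthesis and a target of WRKY33, had 43.42 to 105.06 FPKM (median 69.0) in 35S:KLU, 3.81, 17.84 and 15.06 FPKM in klu and 16.24, 15.6 and 22.51 FPKM in Col-0. Neither overlapped, and differences from Col-0 were 2.50 ± 0.39 for PR1 (adjusted p = 0.0015) and 1.83 ± 0.37 for PAD3 (adjusted p = 0.0057). CYP71A13 and CYP71A12, also of camalexin and indole synthesis, rose by 2.15 and 1.03, and ICS1, SARD1, FRK1 and PAD4 by 0.47 to 0.62. ACS2, EDS1, NPR1, ACS6 and PHO1 were not called relative to Col-0, at 0.19, 0.29, 0.18, −0.38 and −0.18, and PHT1;1 was not tested.

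SAG12, a cysteine protease gene of late senescence, was the one target that fell. It was at 0 to 0.8 FPKM (median 0.035) in 35S:KLU, 0 FPKM in all 3 klu libraries and 36.09, 47.13 and 5.11 FPKM in Col-0. Both the 35S:KLU lines and klu were thus below Col-0, and Col-0 replicate 3 was well below the other Col-0 libraries. The difference of the 35S:KLU lines from Col-0 was −4.24 ± 0.50 (adjusted p = 0.00037), and that from klu was 0.23 ± 0.50 (adjusted p = 0.78). SAG12 passed the filter only through the Col-0 libraries in which it is high.

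Upstream of several WRKY factors stands a cascade of MAP kinases, of which 12 genes were tested. MKK1 and MKK2, which act before MPK4, rose relative to Col-0 by 0.48 ± 0.08 and 0.37 ± 0.08 (adjusted p = 0.0022 and 0.0087), and relative to klu MEKK1 and MKK4 rose too. The 2 of 12 relative to Col-0 are near the share of all genes, 11.4%, and the 4 of 12 relative to klu stand beside 15.9%, or 2 of 12 without klu replicate 1. MKK1 had 50.26 to 62.72 FPKM (median 54.5) in 35S:KLU, 37.22, 43.83 and 42.66 FPKM in klu and 38.27, 36.76 and 43.72 FPKM in Col-0, with no overlap. MAPKKK3, MAPKKK5, MKK5, MKK9, MPK3, MPK4, MPK6 and MPK11 were not called in either comparison, at −0.19 to 0.20 relative to Col-0. The median of the 12 genes was 0.16 relative to Col-0 and 0.24 relative to klu, beside 0.03 and 0.04 over all genes.

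VQ proteins bind WRKY factors through a short motif and tune their activity. Of 29 VQ genes found by description, 20 were tested, of which 4 rose and 1 fell relative to Col-0 and 6 rose and 1 fell relative to klu, or 4 and 1 without klu replicate 1. Over all genes 11.4% were higher and 8.18% lower than in Col-0, while 15.9% were higher and 10.7% lower than in klu. The medians of the VQ genes were 0.10 and 0.19, beside 0.03 and 0.04 over all genes. The largest was AT1G78410, at 36.56 to 57.27 FPKM (median 37.55) in 35S:KLU, 8.91, 16.8 and 21.65 FPKM in klu and 15.61, 15.95 and 19.16 FPKM in Col-0, a rise of 1.21 ± 0.21 relative to Col-0 (adjusted p = 0.0027). AT4G20000, AT3G22160 and AT4G15120 rose by 0.82, 0.82 and 0.63, and AT3G56880 fell by 0.73. SIB2, a partner of WRKY33, was called only relative to klu, at 0.38 ± 0.11, against 0.11 ± 0.11 relative to Col-0.

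Genes that touch and wounding induce within minutes, several WRKY genes among them, vary with handling at harvest, so 18 of them outside the family were read beside it. In the 35S:KLU lines 12 of the 18 were lower and 3 higher than in Col-0, with a median difference of −0.81, and 6 were lower and 3 higher than in klu, with a median of −0.45, or −0.57 at the same counts without klu replicate 1. CAF1A, a deadenylase, had 6.79 to 12.85 FPKM (median 8.1) in 35S:KLU, 23.58, 23.7 and 58.43 FPKM in klu and 43.6, 27.41 and 38.28 FPKM in Col-0. TCH4, a cell wall enzyme named for touch, had 5.76 to 9.76 FPKM (median 8.48) in 35S:KLU, 12.61, 15.24 and 19.02 FPKM in klu and 24.63, 35.29 and 15.32 FPKM in Col-0. CAF1A fell by 1.89 and TCH4 by 1.47 relative to Col-0. The calmodulin-like genes TCH3 and CML37 and the zinc finger gene ZAT12 rose, by 0.65, 0.95 and 0.80. The other genes that fell were TCH2 by 1.45, CBF1, CBF2 and CBF3 by 1.53, 1.30 and 0.69, ERF109 by 1.54, SZF1 by 1.09, ZAT10 by 1.04, and ERF6, ERF5 and ERF104 by 0.81, 0.64 and 0.52. ERF109 passed the filter only through klu and Col-0 libraries. CML38, ERF11 and SZF2 were not called, at −0.81, −0.37 and −0.11. The summed level of the 18 genes lay between 395 and 534 FPKM in 35S:KLU, between 367 and 632 FPKM in klu and between 499 and 597 FPKM in Col-0. The part that handling had in the WRKY values was not tested.

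Of the 5 leaf markers, Rubisco activase (RCA) alone fell relative to Col-0, by 0.57 ± 0.10 (adjusted p = 0.002), and RCA and CAB2 fell relative to klu.

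**Figure D5:**
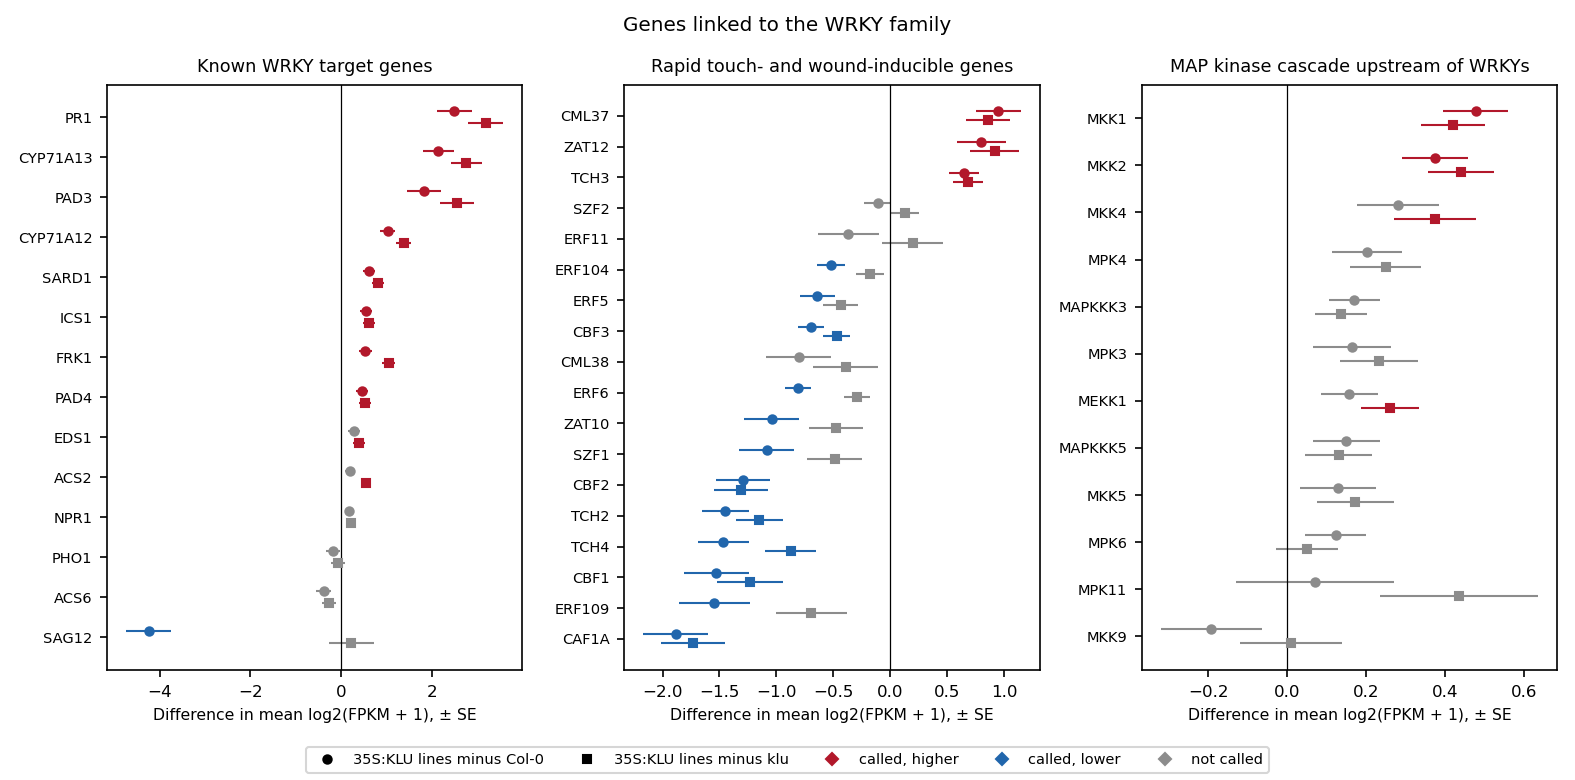
Difference in mean log2(FPKM + 1) with its standard error for genes linked to the WRKY family, with circles for the 35S:KLU lines minus Col-0 and squares for the 35S:KLU lines minus klu, and red, blue and grey for genes called higher, called lower and not called. In the left panel 8 of 14 circles are red and 1 is blue, in the middle panel 3 of 18 are red and 12 blue, and in the right panel 2 of 12 are red.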

How the data were processed

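RNA was taken from rosettes of single plants, and strand-specific poly(A) libraries were sequenced as paired ends. The authors deposited FPKM values per gene, made from reads aligned to TAIR10 with STAR (version not given in the sources used here) and quantified with RSEM 1.2.22, per the submitters' processing notes. Estimated counts were not used. The same table holds 24 columns of the authors' own comparisons (fold changes and p-values), which were not used, and 0 per-sample columns were left unassigned.

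Genotype means were fitted over all 12 libraries with limma 3.58.1 in R 4.3.3 on log2(FPKM + 1), with a mean-dependent prior variance, for genes with at least 0.5 FPKM in 3 or more libraries, and p-values were adjusted by Benjamini-Hochberg over 19660 genes. A call is an adjusted p under 0.05. FPKM is relative within a library, and 1 gene was left out by the rule that chose the members. Members, lists and tests were chosen with earlier results of these data known. The genes named are KLU, the members called for both lines (with full values the 10 with the largest change in each direction), the 5 most abundant, subgroup IIa, the NLR-WRKY genes, WRKY28, members called in 1 line only, every gene of the target, MAP kinase and touch lists, and up to 6 called VQ genes. A few others (such as WRKY14, WRKY23, WRKY43 and WRKY67) were named after their values were seen. The fit was checked on simulated data.

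The number of fragments per library is unknown. The value of 1 fragment relative to Col-0 replicate 1 ranged between 0.877 and 1.56. All 73 members were matched by locus tag to RefSeq on TAIR10.1, from which the sequences come. Alternatives were a pseudocount of 0.1, no filter, a filter of 1 FPKM, a replicate block, only the groups compared, median-of-ratios scaling, equal FPKM sums without KLU, library weights, and leaving out each library.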

Additional observations from a re-analysis of the deposited data

How the results depend on the processing

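With all settings tried, klu against Col-0 and 35S:KLU2 against 35S:KLU1 gave 0 called members in each of 20, and 10 of the 20 calls relative to Col-0 and 25 of the 32 relative to klu were kept in all 20. WRKY71 relative to Col-0 and WRKY61 relative to klu were kept in the 19 in which they were tested, since the filter of 1 FPKM removes both. For the mean of both lines, leaving out a library gave 13 to 28 called members relative to Col-0 and 26 to 32 relative to klu, and the other settings gave 17 to 29 and 30 to 35. With a library left out, 35S:KLU1 had 5 to 18 called members relative to Col-0 and 16 to 27 relative to klu, and 35S:KLU2 had 8 to 26 and 20 to 31. Fitted on the compared groups alone, 35S:KLU1 had 20 called members relative to Col-0 and 12 relative to klu, and 35S:KLU2 had 18 relative to klu. Library weights gave 20 for 35S:KLU1 relative to Col-0. The cause of these differences was not tested. For most of these settings the share of all genes called was not worked out. The counts of members alone do not tell a change in the members from one over all genes. With a library left out, the difference of WRKY40 from Col-0 ranged from −0.084 (without Col-0 replicate 3) to 0.43, and that of WRKY28 from klu ranged from −0.20 (without klu replicate 1) to 0.27, with −0.18 under library weights. With the replicate number as a block, 17 members were called relative to Col-0 and 31 relative to klu for both lines, 12 and 24 for 35S:KLU1, 17 and 28 for 35S:KLU2, and 0 between klu and Col-0 and between the lines. Deviations of same-numbered libraries of different genotypes correlated at −0.16 to 0.13, with 1 of 18 pairs over 0.1. Differently numbered ones correlated at −0.15 to 0.17, with 3 of 36 over 0.1. The libraries were therefore not treated as pairs, and whether they share a batch was not tested. Members near 0.5 FPKM are limited by depth.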
